A study of Mus musculus with 46 samples.

Results

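The regions described here are the H3.3 peaks of D16S+ cells, SSEA-1-positive cells sorted 16 days into reprogramming, that were overlapped by 1 bp or more by an H3.3 peak in each of the other 11 reprogramming libraries. The rule picked 3494 of 34062 D16S+ peaks, or 10.3%. They are called constant peaks, and the other 30568 D16S+ peaks are called peaks in fewer libraries. H3.3 presence in the 12 reprogramming libraries chose these regions, so their H3.3 values in those libraries are a description. Positions, the marks H3K4me3 and H3K36me3, and H3.3 in the transdifferentiation libraries were not used by the rule. A constant peak is a peak called in every library, which does not mean that the level was the same in each.

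The study used ChIP-Seq to map H3.3 in embryonic fibroblasts of the mouse (MEFs) on their way to induced pluripotent stem cells (iPSCs), after retroviruses had brought in Sox2, Klf4, Oct4 and c-Myc. D0 cells were fibroblasts before conversion, and D3 cells were collected unsorted on day 3. On days 6 and 9 cells were sorted by Thy-1, a fibroblast surface protein, into negative (D6T-, D9T-) and positive (D6T+, D9T+) fractions. On days 12 and 16 they were sorted by SSEA-1, a surface antigen of pluripotent cells, into positive (D12S+, D16S+) and negative (D12S-, D16S-) fractions. The Thy-1-negative and SSEA-1-positive fractions were on the successful route, and iPSCs and the embryonic stem cells ESD3 complete the 12 libraries. A separate conversion towards hematopoietic progenitors by Scl, Lmo2, Bmi and Runx1 gave 4 further H3.3 libraries, namely MEF, D4 (day 4) and the sorted cKit+ and cKit- fractions. H3K4me3 and H3K36me3 were each profiled in D0, D3, D6T-, D9T-, D12S+, D16S+ and iPSCs. Each group had 1 library, so no difference was set against a spread between replicates and no test was made. Shares carry 95% Wilson intervals, and differences of shares carry the interval built from both, which cover counting error only. In bulk libraries, fewer cells with H3.3 at a site and less H3.3 per cell cannot be told apart.

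H3.3 is a variant of histone H3 that is put into chromatin outside of DNA replication. The chaperone Hira places it at active genes and regulatory elements, whereas Atrx with Daxx places it at telomeres and other heterochromatin. H3K4me3 is known as a mark of active and poised gene starts, and H3K36me3 as a mark laid down along the bodies of transcribed genes.

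The libraries held 18.7 (D16S+) to 41.2 (iPSCs) M tags in reprogramming and 46.7 to 91.8 M in transdifferentiation. D16S+ was the least deep of the reprogramming libraries and had the shortest list, so the rule started from the smallest of 12 sets, which ran up to 89727 peaks in D0. H3.3 peaks held 4.88% (D16S+) to 22.0% (D12S-) of the tags in reprogramming, 37.2% in D4, and 1.65% and 2.31% in cKit+ and cKit-. H3.3 peaks overlapped 7 of 7 fibroblast marker genes in D0 and MEF, 1 of 7 in iPSCs and D16S+, and none of the 7 in ESD3. Of 8 pluripotency markers, 3 had a peak in D0, 6 in both D16S+ and ESD3, and 8 in iPSCs. Of 6 hematopoietic markers, 3 had a peak in cKit+, where Kit itself had none, and 4 in cKit-, while D0 fibroblasts had 4. The hematopoietic markers therefore did not set the cKit+ library apart from fibroblasts.

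To show what the constant peaks looked like as DNA, 150 bp stretches were read from the mm9 genome (NCBIM37) for the 2 members of highest median H3.3 level in each class of position, leaving out those with an input over 2 times the library median. Each is the stretch without protein-coding exon sequence that lay nearest to the middle of the peak. All sequences run 5′ to 3′ on the + strand, and capitals mark letters of 8 short motifs searched on both strands, namely TGANTCA (AP-1), GGGCGG (GC box), CCAAT (NF-Y), CCGGAAG (ETS), TGACGTC (CRE), ATTTGCA (octamer), ATGGCGG (YY1) and GCGCATG (NRF1). Both promoter members come first, at 2210404J11Rik and at Mpdu1, a gene of dolichol-linked sugar use. They are followed by the end of the neighbouring genes Sumf2 and Cct6a (a chaperonin subunit), an intron at the elongation factor gene Eef2, the stretch next to the ribosomal protein gene Rpl3, and the nuclear noncoding RNA Malat1, which counts as intergenic because only protein-coding genes were used for position.
2210404J11Rik promoter, chr17:15189455-15189604: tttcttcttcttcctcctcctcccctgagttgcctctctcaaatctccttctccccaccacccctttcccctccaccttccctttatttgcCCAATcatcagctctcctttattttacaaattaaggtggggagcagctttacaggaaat
Mpdu1 promoter, chr11:69476749-69476898: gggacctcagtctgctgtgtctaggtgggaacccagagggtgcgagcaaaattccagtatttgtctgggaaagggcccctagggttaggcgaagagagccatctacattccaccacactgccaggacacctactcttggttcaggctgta
Sumf2 and Cct6a gene end, chr5:130321745-130321894: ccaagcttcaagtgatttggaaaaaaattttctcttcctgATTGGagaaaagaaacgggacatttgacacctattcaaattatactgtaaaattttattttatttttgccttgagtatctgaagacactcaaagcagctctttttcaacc
Eef2 and 4930442H23Rik intron, chr10:80644371-80644520: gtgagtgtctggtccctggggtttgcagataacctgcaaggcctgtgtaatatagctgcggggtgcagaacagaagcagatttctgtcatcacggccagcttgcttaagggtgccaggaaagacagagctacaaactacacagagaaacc
Next to Rpl3, chr15:79905464-79905613: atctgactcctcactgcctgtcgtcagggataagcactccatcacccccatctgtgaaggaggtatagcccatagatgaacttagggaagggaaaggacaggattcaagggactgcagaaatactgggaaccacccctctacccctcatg
Malat1, chr19:5797738-5797887: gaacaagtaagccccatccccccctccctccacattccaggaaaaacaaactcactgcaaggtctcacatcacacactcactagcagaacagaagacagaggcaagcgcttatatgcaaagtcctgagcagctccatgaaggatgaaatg

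Of these 6 stretches, those of 2210404J11Rik and of Sumf2 and Cct6a held CCAAT letters, and the other 4 held none of the 8 motifs. The stretches held 0 to 2 CpG each, and their GC content ran from 32.7% (Sumf2 and Cct6a) to 54.7% (Mpdu1), so these were CpG-poor stretches. Input at the 2210404J11Rik member was 1.99 times the library median, just under the limit set for printing.

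The ETS letters, CCGGAAG, were found more often in constant peaks than in peaks in fewer libraries. For that reason, and chosen after the values were seen, the stretch around the match is shown for 4 promoter members at zinc-finger genes. Zfp568, Zfp865 and Zfp740 encode zinc-finger proteins, and Zfp36 encodes an RNA-binding protein that speeds the decay of inflammatory mRNAs.
Zfp568, chr7:30768801-30768950: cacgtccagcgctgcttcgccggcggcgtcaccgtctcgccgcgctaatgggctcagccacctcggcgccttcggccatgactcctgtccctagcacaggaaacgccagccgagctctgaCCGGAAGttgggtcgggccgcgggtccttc
Zfp865, chr7:4971804-4971953: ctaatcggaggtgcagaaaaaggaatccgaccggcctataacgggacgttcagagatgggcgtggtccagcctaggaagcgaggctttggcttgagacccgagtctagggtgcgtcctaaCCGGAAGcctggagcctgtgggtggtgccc
Zfp740, chr15:102033913-102034062: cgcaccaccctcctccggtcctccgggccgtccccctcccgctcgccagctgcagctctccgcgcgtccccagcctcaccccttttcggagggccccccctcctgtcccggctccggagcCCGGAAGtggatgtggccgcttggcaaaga
Zfp36, chr7:29164313-29164462: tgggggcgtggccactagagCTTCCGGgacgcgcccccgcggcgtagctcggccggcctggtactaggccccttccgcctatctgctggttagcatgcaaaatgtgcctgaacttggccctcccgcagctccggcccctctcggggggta

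These 4 stretches held 10 to 19 CpG and a GC content of 60% to 73.3%, unlike the 6 above. They were picked only at promoters and for letters that themselves hold a CpG, whereas the 6 came from every class of position. The contrast is therefore not a result about constant peaks. All 4 members had an H3K4me3 peak in 7 of 7 libraries. Zfp36 also had H3K36me3 in 4 of 7, while the other 3 had it in none.

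D16S+ peaks were grouped by the number of other libraries that shared them. The largest groups were peaks in 2 (4085) and in 1 (3859) of the other libraries, the smallest were peaks in 6 (2178) and 5 (2191), and 2876 peaks were found in no other library. From there the number rose again to 2653 peaks in 10 and the 3494 constant peaks in all 11. Peaks in 10 of 11 are the nearest neighbours of the constant peaks, and 1046 of the 2653 were missing only from ESD3, against 315 missing only from D3, 287 from D12S+ and 2 from D12S-. In the missing library the nearest H3.3 peak was a median of 0.877 kb away, and it was within 1 kb for 1403 of the 2653 peaks (52.9%) and within 5 kb for 2186 (82.4%). Many of the peaks just outside the rule thus had a called peak close by in the library that left them out. The count of constant peaks depended on the stringency of the overlap and of the peaks. It was 1326 when at least 0.5 of the D16S+ peak had to be covered in every library, 141 with only peaks at or above the median score of each library, and 24 when every peak needed 4 times its input or more. With the 34062 peaks of the most tags in each library it was 2449.

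**Figure D1:**
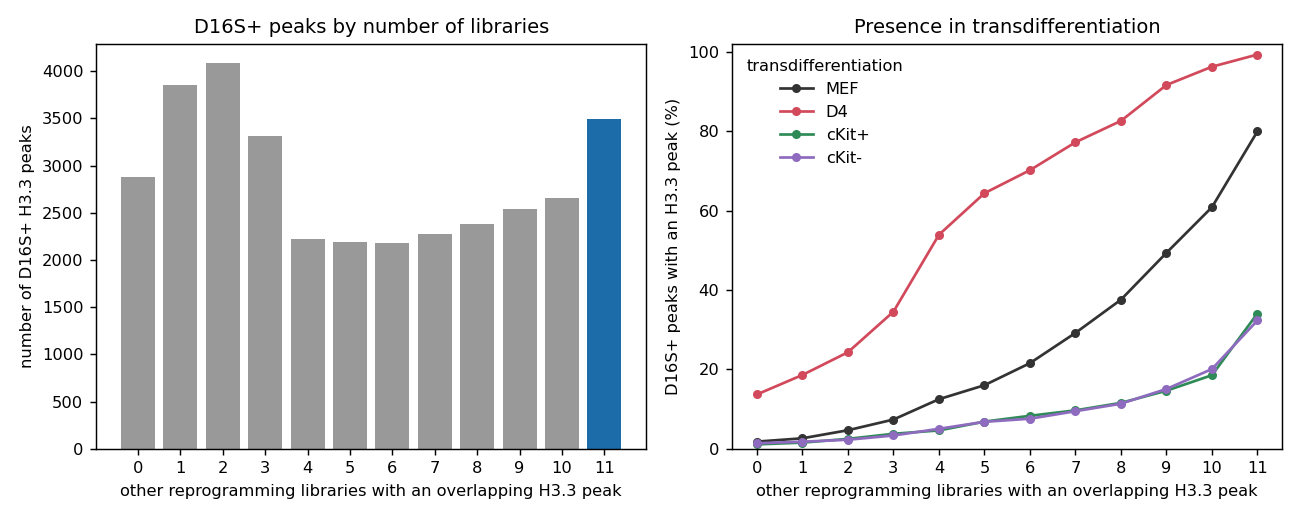
Left, number of D16S+ H3.3 peaks (vertical axis) by the number of other reprogramming libraries with an overlapping H3.3 peak (horizontal axis, 0 to 11), with the 3494 constant peaks as the blue bar at 11. Right, percent of each of these groups with an H3.3 peak in MEF, D4, cKit+ and cKit-, where D4 climbs from 13.7% to 99.3%, MEF from 1.81% to 80.0%, and cKit+ and cKit- end at 34.1% and 32.3%.

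Just inside the rule lay 4 members whose smallest overlap was 1 bp. They were at Wasf2, an actin regulator, and Plaur, the urokinase receptor (both through ESD3), at Usp48, a deubiquitinase (through D6T-), and at Trex1, a DNA exonuclease, with Atrip (through D9T+). In all, 324 members had a smallest overlap under 100 bp, and the median smallest overlap was 501 bp, the length of the shortest constant peaks.

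Constant peaks were long. Their median length was 1392 bp (quartiles 783 and 2274), against 501 bp for peaks in fewer libraries and 784 bp for those in 10 of 11. Over 2 kb were 1061 members (30.4%), compared with 3.08% of the peaks in fewer libraries. A longer peak is overlapped more easily, so length stands beside the shares that follow. Of the 6.25 Mb in constant peaks, 33.9% was covered by a peak in all 12 libraries. This common core had a median length of 340 bp, was 1 kb or more in 587 members and was absent in 776 (22.2%), in which peaks of different libraries touched different parts of the D16S+ peak. In the other libraries the peak at a constant region was usually longer than in D16S+, with a median of 1643 bp in ESD3 to 7274 bp in D12S-.

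The longest constant peaks spanned all or part of single named genes. The longest of all, 18052 bp (chr12:88225234-88243285), lay over the noncoding Gm17422 and the edge of 6430527G18Rik, and its input was 2.24 times the library median. Eno1, which encodes the glycolytic enzyme enolase, followed with 14659 bp (chr4:149611976-149626634), of which 11892 bp were common to all 12 libraries. Npm1, encoding the nucleolar protein nucleophosmin, had 14390 bp (chr11:33047936-33062325) with a core of 9675 bp. These 2 members spanned most of their genes, and with them constant peaks covered 90.6% of Eno1 and 91.9% of Npm1. The longest core of all, 12019 bp, was at Srsf3 (chr17:29172373-29185768), a splicing factor gene. Pkm2, encoding pyruvate kinase, had a peak of 11063 bp (chr9:59517798-59528860) with a core of 9426 bp. At Slc2a1, the gene of the glucose transporter Glut1, only 593 of 13418 bp (chr4:118802814-118816231) were common to all libraries.

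The share of the gene covered by H3.3 peaks, counting all peaks of a library and not only the constant ones, set these genes apart from each other. Eno1 was covered between 80.1% (ESD3) and 100% in the 12 reprogramming libraries, with a median of 95.3%. Npm1 ran from 69.7% (ESD3) to 100% and Rpl3 from 64.3% (D3) to 100%. These genes were covered over most of their length in every stage, sorted fraction and stem cell line. Slc2a1 varied far more, from 12.9% in D6T- to 98.2% in D12S+, and was also low in D6T+ (20.5%) and D9T+ (26.5%). Vim, the gene of the fibroblast intermediate filament vimentin, shows how a constant peak can hide a large change. It was covered over 95.9% in D0, 79.0% in D3, 100% in D6T- and D9T-, 72.7% in D12S+ and 16.2% in D16S+, with 9.96% left in iPSCs and 8.30% in ESD3. The negative fraction D16S- still had 100%. What stayed constant at Vim was 816 bp (chr2:13496855-13497670), which made up 9.17% of the gene and had no core common to all libraries.

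**Figure D2:**
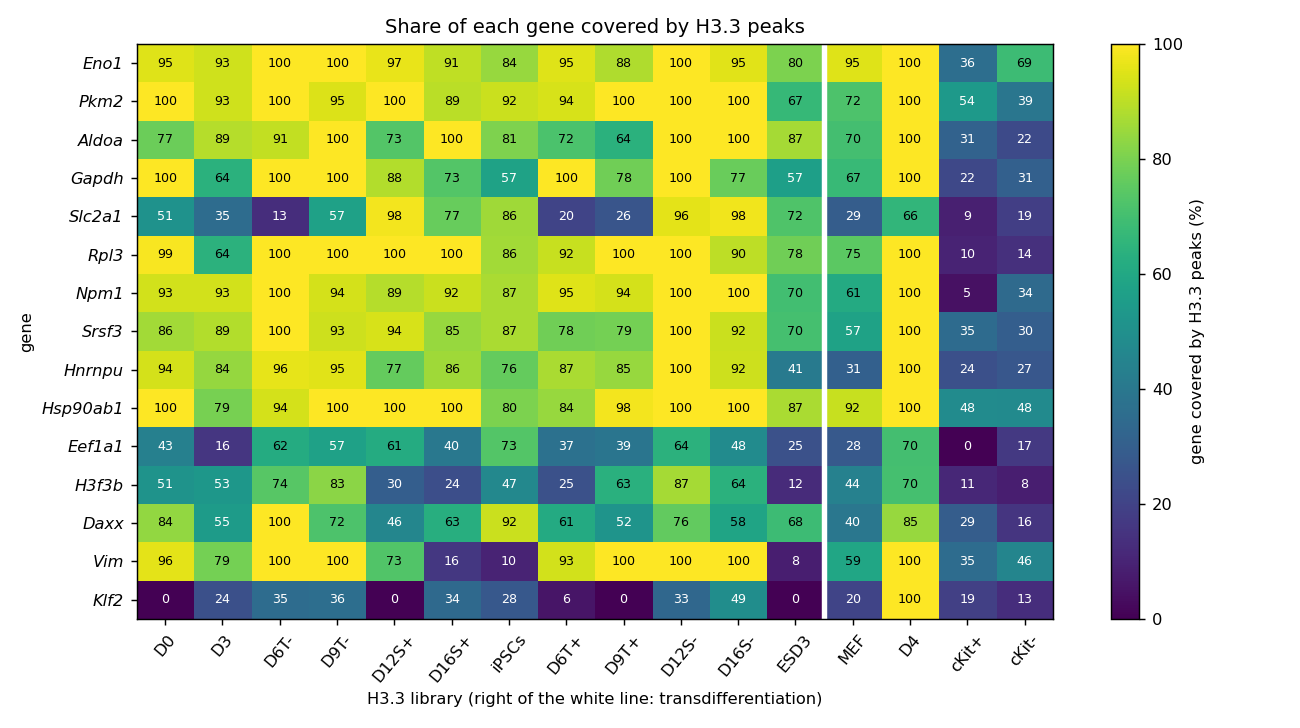
Percent of the length of 15 genes (rows, with the value printed in each cell and as colour from 0 to 100) covered by H3.3 peaks in each library (columns, the 12 of reprogramming left of the white line and the 4 of transdifferentiation right of it). Eno1 and Pkm2 stay high through reprogramming, Vim drops to 16.2% (D16S+), 9.96% (iPSCs) and 8.30% (ESD3), and Klf2 is never above 49.2% in reprogramming.

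The H3.3 level at a member was taken as tags per 10 M tags and per kb of the overlapping peak. That peak differed in length between libraries, so the levels of a member cover different stretches, and only called peaks gave a level. A small ratio between libraries therefore does not show an equal level at a fixed site. The median level over the constant peaks ran from 13.5 in iPSCs to 19.1 in D12S-, and was 1.09 (D16S+, ESD3) to 1.40 (D12S-) times the median level of all peaks of the same library. Within their own libraries the constant peaks lay at a median percentile of 85.8 (ESD3) to 96.7 (D12S-) by total tags, but only 32.5 (D16S+) to 70.5 (D12S-) by fold over input. By level the median percentile was 70.7 (D16S+) to 94.9 (D12S-). In each of the 12 libraries the constant peaks thus ranked higher by total tags, length and level than by fold over input. The median fold in D16S+ was 3.92 against 4.50 for peaks in fewer libraries. For a given member the highest level over the 12 libraries was a median of 1.64 times the lowest (quartiles 1.51 and 1.81), and it was over 4 times in 6 members. The lowest level was in iPSCs for 1741 members and the highest in D12S- for 824. The median over all peaks was lowest in iPSCs too, at 11.8 against 13.1 (D3) to 15.2 (D16S+) elsewhere. Relative to it the constant peaks in iPSCs stood at 1.14. The iPSC library was also the deepest of the 12, at 41.2 M tags, and the part of depth in these levels was not tested.

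At Eno1 the level was 16.2 in iPSCs at the lowest, 21.5 at the median and 27.2 in D12S- at the highest. At Rpl3 it ran from 20.4 in iPSCs over a median of 26.4 to 32.8 in D9T-, and at Srsf3 from 16.7 in iPSCs over 22.5 to 30.6 in D9T-. All 3 were lowest in iPSCs and highest in a sorted intermediate fraction. The smallest ratio of highest to lowest level was 1.18, at the noncoding 1700047K16Rik. Next came Gprc5a, an orphan receptor gene, with 1.19, and Pcgf2, a Polycomb component gene, with 1.21. Gprc5a ran from 14.9 in D3 to 17.7 in D6T-. The most variable was a member in an intron of Efna5, an ephrin ligand gene, which ran from 18.9 in D12S- to 305 in ESD3, a ratio of 16.1, and its input was 3.77 times the library median.

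A high input touched a small number of members, among them those of highest level. Input over 2 times the library median, taken as the median over the 12 libraries, was found at 38 members (1.09%), and 8 of these were over 5 times. Among peaks in fewer libraries, with the median taken over the libraries that had the peak, the share over 2 times was 1.17%. The intergenic member with the highest level of all, 676 tags per kb (chr2:57481751-57482376), had an input of 55.6 times the median, and the next, with 246 (chr2:181747198-181747960), had 20.8 times. Neither had H3K4me3 or H3K36me3 in any library. The top promoter member, at the dynein light chain gene Dynlt1b, had a level of 46.1 and an input of 4.10 times. The gene has close copies nearby, and the authors removed reads that mapped to several loci, so its level is uncertain. How far the input accounts for these H3.3 levels was not tested.

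Constant peaks lay at genes more often than peaks in fewer libraries, at 74.4% against 59.3%, with higher shares at gene starts and gene ends. With the same number of top-scoring peaks taken from every library, which left 117 constant peaks, the share at genes was 61.5% (52.5 to 69.9), an interval that holds the 59.3%. Promoter-TSS regions, which reach 1000 bp before and 100 bp past a start, held the middle of 624 members (17.9%, 16.6 to 19.2) against 8.47% of the peaks in fewer libraries, a difference of 9.39 percentage points (8.11 to 10.7). Gene ends (TTS) held 436 (12.5%, 11.4 to 13.6) against 4.31%, a difference of 8.16 points (7.08 to 9.32). Exons held 293 (8.39% against 4.47%) and introns 1245 (35.6% against 42.0%). Intergenic members numbered 896 (25.6% against 40.7%). Peaks in 10 of 11 libraries had 19.2% at promoters and 8.93% at gene ends, and 25.5% between genes, so for promoters and for genes as a whole they were close to the constant peaks. At gene ends, in exons (6.78%) and by cover of a start site (8.74%) they were lower than the constant peaks.

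The differences at promoters and gene ends were also seen among peaks of like length, whereas introns held 34.9% of constant peaks and 34.5% of the others between 1 and 2 kb. Among the shortest peaks, up to 510 bp, 15.0% of 427 constant peaks and 7.11% of the peaks in fewer libraries lay at promoters, and 12.6% against 4.35% lay at gene ends. Among peaks over 2 kb, promoters held 11.03% against 5.95% and gene ends 16.2% against 4.36%. In each of the 5 length classes the shares at promoters and at gene ends were higher for constant peaks. A transcription start site was inside 531 members (15.2%) against 3.72%, and the median distance of the peak's middle to the nearest start was 4024 bp against 13211 bp.

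The same was seen along genes. Among genes of 5 kb or more that were touched, the start lay in a peak for 17.6% of 1676 genes with constant peaks and 9.64% of 7099 genes with peaks in fewer libraries. At the gene end the shares were 28.8% and 7.66%. These profiles count only genes whose body was touched, so peaks wholly upstream of a start are left out, and they are not matched for length. By the middle of the peak, which includes upstream peaks, constant peaks were more frequent at starts (624) than at ends (436). Small nucleolar RNA genes, which guide chemical changes of ribosomal RNA and often sit in introns of ribosomal protein and translation genes, lay in 61 members (1.75%) against 0.0916%. Among peaks over 2 kb these shares were 4.71% and 0.425%. Rpl3, for example, held Snord83b, Eif4a2 (an RNA helicase of translation initiation) held 5 such RNAs, and Hspa8 (a heat shock cognate chaperone) held Snord14c, Snord14d and Snord14e.

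**Figure D3:**
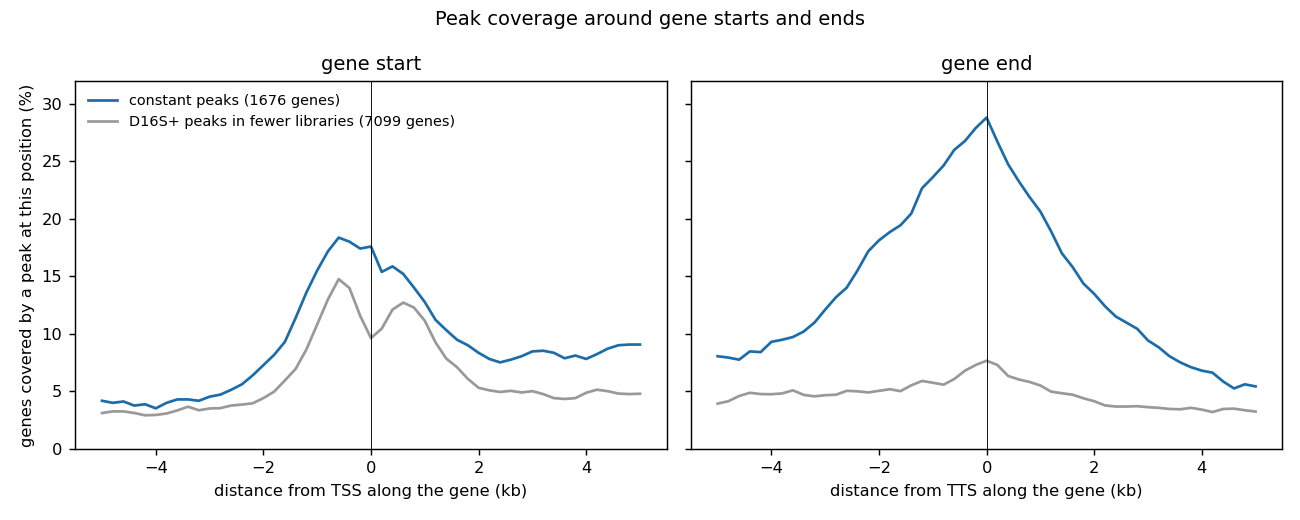
Percent of genes whose position lies in a peak (vertical axis) by distance from the gene start (left) or gene end (right), in kb along the gene, for genes of 5 kb or more touched by constant peaks (blue, 1676 genes) or by D16S+ peaks in fewer libraries (grey, 7099 genes). The blue line reaches 17.6% at the start and 28.8% at the end, and the grey line 9.64% and 7.66%.

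The 896 intergenic members were closer to genes than the 12455 intergenic peaks in fewer libraries. Their median distance to a protein-coding start was 8003 bp, against 26548 bp, or 9032 bp for peaks in 10 of 11 libraries. Within 5 kb were 356 (39.7% against 14.8%), and farther than 50 kb were 70 (7.81% against 33.2%). Some other annotated gene was touched by 197 of them (22.0% against 7.55%), among them Malat1 (chr19:5793428-5802198) with a level of 24.3. Neither mark was found at 67 of the 896 (7.48% against 54.1%), and 21 had an input over 2 times the library median.

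Chromosomes were represented unevenly. Constant peaks made up 15.8% (13.7 to 18.2) of the D16S+ peaks on chromosome 19, 14.9% on chromosome 7 and 14.2% on chromosome 11, but 6.61% on chromosome 13. On chromosome X only 5 of 387 D16S+ peaks were constant (1.29%, 0.553 to 2.99). X peaks were scarce in every H3.3 library, at 0.487% (D3) to 1.26% (D6T-) of the peaks in reprogramming.

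By nearest start site, 1936 of 22225 protein-coding genes (8.71%) were given a constant peak that lay at some gene, whereas 40.6% were given any such D16S+ peak. Such a peak can lie outside the gene it is given to, as at the proteasome gene Psmd4, of which constant peaks covered 0%. By the gene that holds the midpoint, 1519 genes had a constant peak. A gene had 10 constant peaks at most, and 443 genes had 2 or more. Measured by overlap with the gene itself, 2029 of 22367 genes (9.07%) were touched, 41 of them were covered over their whole length, and the median covered share was 7.12%.

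Genes of protein synthesis, glycolysis and general cell upkeep had constant peaks most often. Of 84 ribosomal protein genes, 56 had a member (66.7%, 56.1 to 75.8), with the highest levels at Rpl3 (26.4), Rpl14 (24.5) and Rpl24 (24.1). Glycolysis genes had 11 of 18 (61.1%, 38.6 to 79.7), namely Aldoa (23.0), Pkm2 (21.9), Eno1 (21.5), Gapdh (20.0), Ldha, Pgam1, Slc2a3, Slc2a1, Hk1, Hk2 and Pgk1. A list of housekeeping genes had 20 of 36 (55.6%), among them Hsp90ab1 (24.3), a cytosolic chaperone, and it shares several genes with the glycolysis list. Splicing and RNA-binding factors had 14 of 29 (48.3%), led by Hnrnpa3 (25.5, with an input of 2.40 times the median) and Srsf3 (22.5). Against 8.71% of all genes these shares are high, but ribosomal protein genes also had some D16S+ peak in 70 of 84 cases.

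Other groups of cell upkeep were represented less evenly. Chaperones had 17 of 44 (38.6%), led by Hsp90ab1, Hsp90aa1 (23.5) and Hspa8 (21.4). Replication-dependent histone genes, which lie in clusters of near-identical copies, had 26 of 67 (38.8%), led by Hist2h2aa2 (24.0) and Hist4h4 (21.3). Translation factors had 21 of 66 (31.8%), led by Eif1 (24.3) and Eif4a2 (23.7), and this list was built from symbols and holds Eif2c1, an Argonaute gene, and the repressor gene Eif4ebp1. Proteasome genes had 8 of 40 (20.0%, 10.5 to 34.8), of which Psmc3ip is not a proteasome subunit, and Psmd7 (16.4) had H3K36me3 in 7 of 7 and H3K4me3 in 0 of 7 libraries. Counts of the small or clustered lists depended on how peaks were given to genes. Giving a peak to the gene that holds its midpoint left 13 histone and 4 proteasome genes, and overlap with the gene itself gave 38 and 6. Zinc-finger genes named Zfp had 31 of 340 (9.12%), a share close to that of all genes.

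For genes of cell identity the shares were near or below that of all genes, with wide intervals. The rule asked for a peak in fibroblasts and in pluripotent cells alike, so a gene with H3.3 peaks in only some of these cells could not have a member. For example, 0 of 8 pluripotency markers had a peak in D9T+ and 0 of 7 fibroblast markers in ESD3. Low shares here therefore follow at least in part from the rule. Pluripotency genes had 2 of 33 (6.06%, 1.68 to 19.6) with 27 having some D16S+ peak, and the members were at Tbx3 (14.3) and Klf2 (14.3), which encode transcription factors. By midpoint 1 of them was left. By overlap with the gene itself 3 of 33 were touched, and Tbx3 was not among them. These were Trim28 (71.4% of the gene covered), Klf2 (34.1%) and Fbxo15 (11.7%). The peak assigned to Tbx3 overlapped the noncoding Gm2301, and at Klf2 the peak reached over the end of the gene, so that in D0, D12S+, D9T+ and ESD3 none of the gene itself was covered. Fibroblast genes had 3 of 36 (8.33%, 2.87 to 21.8) with 10 having some D16S+ peak, at Vim (20.6), Sparc (15.5), a matrix protein gene, and Tgfb1 (15.1), a growth factor gene. Epithelial genes had 1 of 18, at Cldn7, a tight junction gene. Hematopoietic genes had 0 of 18, which allows a share of up to 17.6%, while 8 had some D16S+ peak.

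Immediate-early genes had 4 of 18 (22.2%, 9.00 to 45.2), at Junb (18.2), Zfp36 (17.9), Ier3 (17.1) and Dusp1 (16.3), of which Junb encodes a subunit of AP-1 and Dusp1 a phosphatase of MAP kinases. By midpoint 2 of them were left. H3.3 itself is encoded by H3f3a and H3f3b, and both genes had constant peaks, at their ends. The level was 17.4 at H3f3a, with H3K36me3 in 4 of 7 and H3K4me3 in 0 of 7 libraries, and 19.8 at H3f3b, with H3K36me3 in 3 and H3K4me3 in 6. Of the chaperones, Daxx had a member (14.5) whose middle lay in an intron, and constant peaks covered 62.8% of the gene. Hira and Atrx had none, so the list of H3.3 genes and chaperones had 3 of 10.

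H3K4me3 was found at most constant peaks. An H3K4me3 peak overlapped 2846 of the 3494 (81.5%, 80.1 to 82.7) in 1 or more of 7 libraries, against 48.7% of all D16S+ peaks and 44.9% of those in fewer libraries. Peaks in 10 of 11 libraries were closer, with 75.1%, and 21.0% of them had the mark in all 7 libraries. By library it overlapped 2244 (64.2%) in D0, where all D16S+ peaks had 28.4%, 2077 (59.4%, all 25.4%) in D3, 2401 (68.7%, all 32.5%) in D6T- and 2120 (60.7%, all 29.1%) in D9T-. On the later route it overlapped 1920 (55.0%, all 26.3%) in D12S+, 1166 (33.4%, all 16.4%) in D16S+ and 2073 (59.3%, all 30.5%) in iPSCs. The share was thus highest in D6T- and lowest in D16S+, where only 3.71% of the H3K4me3 tags lay in peaks, against 9.27% to 34.8% in the other 6 libraries. All 7 libraries had the mark at 903 members (25.8%, 24.4 to 27.3), against 10.6% of all D16S+ peaks and 8.89% of those in fewer libraries, a difference of 17.0 points (15.5 to 18.5).

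H3K36me3 was found at fewer constant peaks. It overlapped 1604 (45.9%, 44.3 to 47.6) in 1 or more libraries, against 31.1% of all D16S+ peaks, 29.4% of those in fewer libraries and 37.1% of those in 10 of 11. By library it overlapped 1389 (39.8%, all D16S+ peaks 22.5%) in D0, 1113 (31.9%, all 16.1%) in D3, 892 (25.5%, all 11.1%) in D6T- and 1311 (37.5%, all 23.5%) in D9T-. In D12S+ it overlapped 337 (9.65%, all 3.11%), in D16S+ 332 (9.50%, all 5.14%) and in iPSCs 717 (20.5%, all 8.31%). The fall after D9T- went with fewer H3K36me3 tags in peaks, 42.4% in D9T- against 1.07% in D12S+, 1.99% in D16S+ and 2.88% in iPSCs, and its part in the result was not tested. All 7 libraries had H3K36me3 at 112 members (3.21%, 2.67 to 3.84), against 0.567% of all D16S+ peaks and 0.265% of those in fewer libraries.

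**Figure D4:**
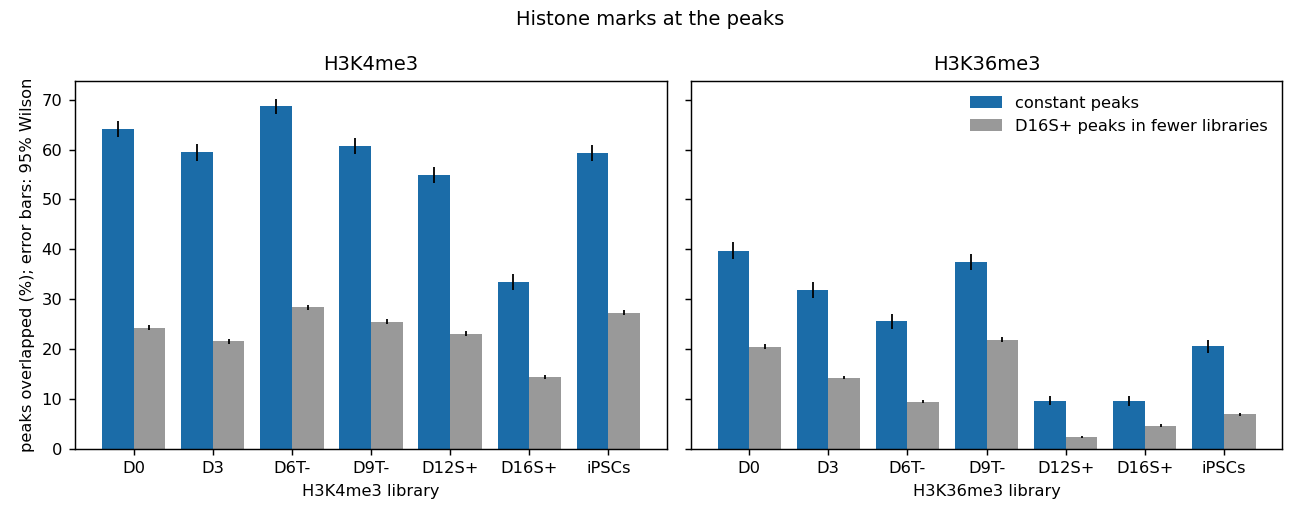
Percent of constant peaks (blue, 3494) and of D16S+ peaks in fewer libraries (grey, 30568) overlapped by an H3K4me3 peak (left) or an H3K36me3 peak (right) in each of 7 libraries, with 95% Wilson intervals as error bars. Blue is above grey in every library of both marks, and the lowest blue bars are D16S+ for H3K4me3 (33.4%) and D12S+ and D16S+ for H3K36me3 (9.65% and 9.50%).

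Over all 7 time points, 1771 members (50.7%) had H3K4me3 alone, against 38.0% of all D16S+ peaks, and 529 (15.1%) had H3K36me3 alone, against 20.4%. Both marks, each in 1 or more libraries, were at 1075 (30.8%), against 10.7%. Neither mark was at 119 (3.41%, 2.85 to 4.06), against 31.0%. The 40 D16S+ peaks with both marks in all 7 libraries (0.117% of all) were all constant peaks. Among those of highest level were Rpl3 (26.4), the RNA helicase gene Ddx5 (24.8), Npm1 (24.7) and Rpl14 (24.5).

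The marks followed position, and the difference from peaks in fewer libraries was not the same in each class. At promoters, H3K4me3 was present in all 7 libraries at 51.1% of the constant peaks and at 44.7% of the peaks in fewer libraries, so here the sets were close. In gene bodies the shares were 20.2% and 7.65%, and between genes they were 20.6% and 2.99%. H3K36me3 in 1 or more libraries was at 64.2% of the gene body members against 46.5%, and at 17.8% of promoter members against 6.10%. Among peaks over 2 kb, H3K4me3 in all 7 was at 39.2% of constant peaks against 12.2%, and H3K36me3 in all 7 was at 8.11% against 1.70%.

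Sequence composition was similar between the sets in GC content and differed in some motifs and, between genes, in CpG. In the 500 bp around the middle of the peak, the median GC content was 48.0% in 3491 constant peaks and 46.2% in peaks in fewer libraries, and a CpG observed over expected above 0.6 was found in 6.65% and 8.20%. Between genes, where the difference was larger, 4.03% (2.93 to 5.53) of constant peaks and 8.98% (8.48 to 9.49) of the others were above 0.6. The GC box was in 18.4% of constant peaks, 13.1% of peaks in fewer libraries and 13.7% of all D16S+ peaks. ETS letters were in 5.01%, 3.02% and 3.22%. At promoters alone the ETS letters were in 10.1%, 6.60% and 7.28%, so a small share of the promoter members held them in these 500 bp. The 4 stretches shown above were found by a search of the whole peak, and the match printed for Zfp36 lies outside these 500 bp. AP-1 letters were in 15.8%, 15.1% and 15.2%, and CCAAT letters in 47.9%, 49.6% and 49.4%. Octamer letters were in 7.56%, 8.62% and 8.51%, and between genes in 7.28%, 10.2% and 10.0%. YY1 letters were in 2.03% against 2.43%, NRF1 letters in 2.78% against 3.70% (between genes 1.90% against 4.62%) and CRE letters in 1.58% against 1.83% of constant peaks and peaks in fewer libraries. Peaks in 10 of 11 libraries were close to the constant peaks for the GC box (17.5%) and for CpG above 0.6 between genes (4.61%). Their ETS letters were in 4.00%, with 4.12% at promoters. Between genes they had ETS letters in 5.65%, and constant peaks in 3.92%. A motif that overlaps another was counted for both.

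H3.3 in the transdifferentiation libraries was not used by the rule. MEF and D0 cells are both fibroblasts, however, and the rule asked for a D0 peak, which 41.8% of all D16S+ peaks had. The MEF share is therefore not independent of the rule, and how far this enters the difference was not tested. The constant peaks were found again in MEF for 2794 (80.0%, 78.6 to 81.3), against 26.2% of all D16S+ peaks and 20.0% of those in fewer libraries, a difference of 60.0 points (58.5 to 61.3). Peaks in 10 of 11 libraries had 60.9% in MEF, 96.3% in D4, 18.5% in cKit+ and 20.1% in cKit-, so in D4 they were close to the constant peaks. In D4 the constant peaks were found for 3471 (99.3%, 99.0 to 99.6), against 57.1% of all and 52.3% of those in fewer libraries. The D4 share has to be read with the breadth of its peaks, which covered 267 Mb, reached 219 kb and had a median length of 12128 bp at constant peaks. In cKit+ cells 1191 (34.1%, 32.5 to 35.7) were found, against 9.70% of all and 6.91% of those in fewer libraries, and in cKit- cells 1130 (32.3%, 30.8 to 33.9), against 9.60% and 7.0%. Both sorted fractions thus held constant peaks at similar shares, well below those of MEF and D4, and both had few tags in peaks. The part of enrichment in this drop was not tested.

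All 4 transdifferentiation libraries had 527 of the constant peaks (15.1%, 13.9 to 16.3), against 2.27% of all D16S+ peaks. Both cKit fractions had 596 (17.1%, against 3.25%), only cKit+ of the pair had 595 (17.0%, against 6.44%) and only cKit- of the pair had 534 (15.3%, against 6.35%). The constant peaks found in each sorted fraction thus fell about evenly into those shared with the other fraction and those not. D4 without MEF had 681 (19.5%, against 31.8%), and MEF without D4 had 4 (0.114%, against 0.793%).

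The higher share of constant peaks was seen in every length class. In MEF, peaks up to 510 bp were found again at 71.7% of constant peaks and 17.2% of peaks in fewer libraries, and peaks over 2 kb at 87.4% and 25.7%. In cKit+ the shares were 21.5% and 6.03% for the shortest and 50.6% and 11.3% for the longest, and in cKit- they were 18.5% and 5.67%, and 48.3% and 11.9%. In D4, where 99.3% of the shortest and 99.2% of the longest constant peaks were found, the share was near its ceiling and could show no relation to length. Of constant peaks over 2 kb, 29.2% were in all 4 libraries, against 2.23%.

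**Figure D5:**
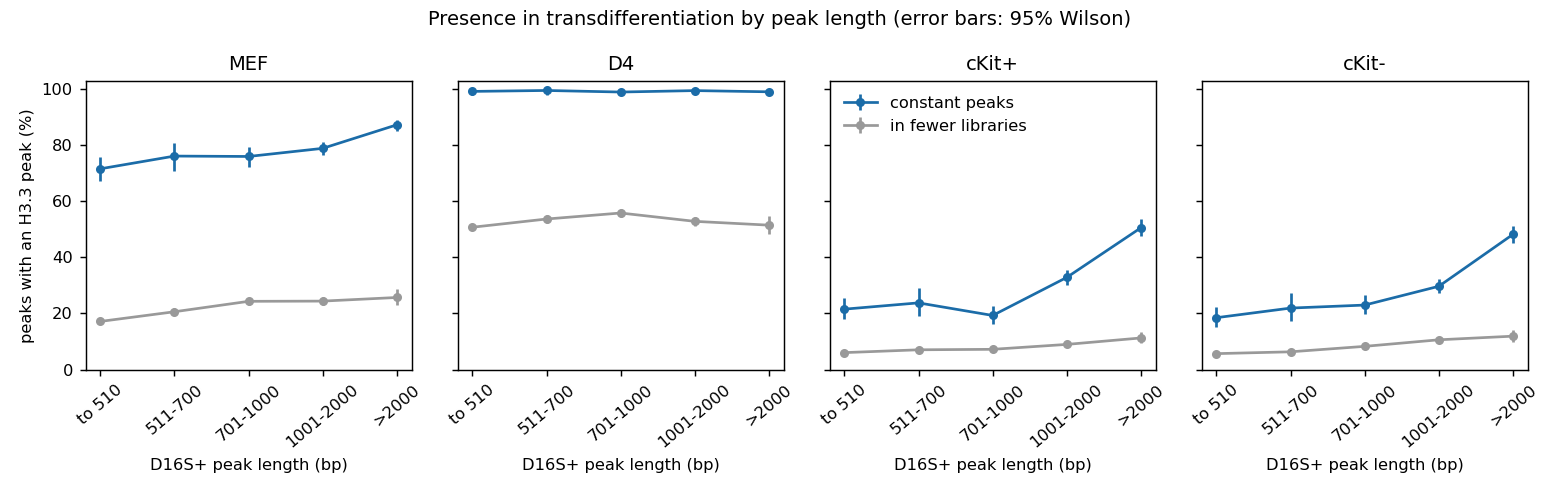
Percent of D16S+ peaks with an H3.3 peak in MEF, D4, cKit+ and cKit- (panels from left to right) by length of the D16S+ peak in 5 classes, for constant peaks (blue) and peaks in fewer libraries (grey), with 95% Wilson intervals. Blue is above grey in every panel and length class, with 99.3% of the shortest and 99.2% of the longest in D4, and rises with length from 21.5% to 50.6% in cKit+ and from 18.5% to 48.3% in cKit-.

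By position, promoter members were found in cKit+ at 27.4% (9.35% of promoter peaks in fewer libraries), gene body members at 36.3% (8.73%) and intergenic members at 33.8% (4.13%). In MEF the shares were 84.9% (43.8%), 78.2% (21.6%) and 80.4% (13.1%). Promoter members were thus the most frequent class in MEF and the least frequent in cKit+. They were also the shortest, with a median of 1207 bp against 1339 bp (introns) to 1602 bp (gene ends) in the other classes. Presence in cKit+ rose with length, and the part of length in this contrast was not tested.

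At single members the level in transdifferentiation was read from the called peak. At Eno1 it was 15.6 in MEF, 23.0 in D4, 8.79 in cKit+ and 17.2 in cKit-. At Rpl3 it was 23.4 in MEF, 23.9 in D4, 12.6 in cKit+ and 13.1 in cKit-. At Npm1 it was 18.9, 20.0, 9.70 and 13.4. All 3 genes were lowest in cKit+. The median level of the constant peaks found was 14.3 in MEF, 17.1 in D4, 9.46 in cKit+ and 13.4 in cKit-, each over a different set of members, and that of all peaks was 11.8, 10.9, 8.89 and 11.8. The whole cKit+ list was thus low, and there the constant peaks stood at 1.06 times all peaks. Only called peaks gave a level, and cKit+ was the deepest library, at 91.8 M tags. The part of depth in its low levels was not tested. The Eno1 gene was covered over 95.1% in MEF, 100% in D4, 36.1% in cKit+ and 68.7% in cKit-, and Npm1 over 61.1%, 100%, 4.59% and 34.5%. Only 17 constant peaks (0.487%, against 40.7% of all D16S+ peaks) had no peak in any of the 4 libraries. The 3 of highest level among them, at Gm13051, at 2610305D13Rik with the zinc-finger gene Zfp534, and at the dynein light chain gene Dynlt1c, had inputs of 7.97, 5.73 and 3.20 times the library median. The next, at Rab1, a small GTPase gene of vesicle traffic, with Cep68, had a level of 18.7 and an input of 1.35 times, and ran in reprogramming from 13.8 in D16S+ to 22.7 in D6T- and D9T-.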

How the data were processed

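ChIP-Seq reads were mapped by the authors to mm9 with STAR, reads at several loci were removed, and peaks were called per library with HOMER findPeaks in histone style against input (versions not given in the sources used here). The 30 deposited peak lists (16 H3.3, 7 H3K4me3, 7 H3K36me3) give a signal, the tag count scaled by the authors to 10 M tags per library, and a fold over input, a ratio of tags to scaled input tags of at least 2.0 in the H3.3 lists. The score of the lists, a signal from the deposited peak call, was used only for alternatives. The p-value column and the 16 input samples, which had no list here, were not used.

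The members and lists were chosen with earlier results of these data known. Overlap meant 1 bp or more. Peaks were placed by their midpoint on protein-coding genes of GENCODE vM1 (NCBIM37, the same build), in the order promoter-TSS (1000 bp upstream to 100 bp downstream), TTS (100 bp upstream to 1000 bp downstream), exon, intron and intergenic, and genic peaks were given to the nearest start. Named members were, by rule, the 5 of highest level per class, longest, of longest core, of lowest and highest level ratio, with both marks or none, absent from transdifferentiation, and up to 4 genes of each of 15 lists; other names were chosen after their values were seen. Each group had 1 sample, so no test was made. Shares carry 95% Wilson intervals. Scripts were tested on simulated peaks. Python 3.11.15, NumPy 2.4.6, pandas 2.3.3 and Matplotlib 3.10.9 were used. Alternatives were stricter overlap, score or fold, equal numbers of peaks, another starting library, each library left out, autosomes only, another promoter window and another gene rule. Some members that the rule names are not reported here.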

Additional observations from a re-analysis of the deposited data

How the results depend on the processing

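The 3494 constant peaks had shares of 17.9% at promoters, 74.4% at genes, 25.8% with H3K4me3 in all 7 libraries, 3.21% with H3K36me3 in all 7, and 80.0%, 99.3%, 34.1% and 32.3% in MEF, D4, cKit+ and cKit-, and the following values keep that order, leaving out those that moved by less than their interval. With at least 0.5 of the peak covered in every library the count was 1326, genes held 75.9%, H3K36me3 was at 4.83%, and the transdifferentiation shares were 89.0%, 99.8%, 39.1% and 39.5%. With the same number of top-scoring peaks per library the count was 117, and the shares were 23.9%, 61.5%, 32.5% and 1.71%, then 88.9% in MEF, 47.0% in cKit+ and 40.2% in cKit-. With peaks at or above the median score, which lay close to the lowest score (19 against 17 in D0), the count was 141, and the shares were 26.2%, 64.5%, 40.4%, 4.96%, and 92.9%, 45.4% and 44.7% in MEF, cKit+ and cKit-. With a fold of at least 4, reached by 22.6% of iPSC peaks, the count was 24, and the shares were 29.2%, 91.7%, 45.8%, 29.2%, 95.8%, 100%, 50% and 50%. Starting from iPSC peaks gave a count of 4403 and 14.3% at promoters. H3K4me3 was at 36.7% and H3K36me3 at 5.18% in all 7 libraries, and MEF, cKit+ and cKit- had 82.4%, 42.5% and 39.0%. A promoter window of 1000 bp on either side gave 22.4%. With the most tags, an alternative chosen after seeing the data, H3K36me3 was at 3.96%, and the transdifferentiation shares were 85.5%, 99.7%, 38.9% and 37.0%. A limit on input at 2 times the median, also chosen after seeing the data, and autosomes alone moved no value beyond its interval. With each library left out in turn the count ran from 3496 to 4540 (without ESD3), promoters from 17.4% to 18.8%, genes from 73.8% to 74.9%, H3K4me3 in all 7 from 24.9% to 26.1%, H3K36me3 in all 7 from 2.62% to 3.20%, MEF from 76.3% to 79.9%, D4 from 97.7% to 99.4%, cKit+ from 31.6% to 34.1% and cKit- from 30.7% to 32.3%. Giving a peak to the gene that holds its midpoint left 4 proteasome, 13 histone, 1 pluripotency and 2 immediate-early genes with a member. Of 187 alternative values 129 stayed and 58 moved. A share stayed if it lay within the interval of the main share. A count, which has no interval, stayed if it lay within a fixed factor of the main count. The cause of these changes was not tested. No paired analysis was possible because each group had 1 library. The depth of D16S+, the lowest of the 12, limits the set the members come from.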
